A study of Arabidopsis thaliana with 6 samples.

Results

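Expansins and xyloglucan endotransglucosylase/hydrolases (XTHs) are 2 families of secreted proteins that act on the cell wall. A set of 39 of their genes, 21 expansin and 18 XTH genes, was taken from the 33318 gene identifiers of the deposited tables by locus number. The expansins comprised 15 alpha-expansins (EXPA), 2 beta-expansins (EXPB) and 4 expansin-like genes (EXLA and EXLB), and the set does not hold every gene of these families. The sequenced tissue was the second internode of *Arabidopsis* Col-0 plants carrying pPXY:GR-ARF5∆III/IV, in which the PXY promoter, active in the stem cells of the cambium, drives a fusion of the glucocorticoid receptor with a form of the auxin response factor ARF5 that lacks the domains through which Aux/IAA proteins repress it. Plants were dipped in 15 µM dexamethasone (Dex), which lets the fusion enter the nucleus, or in a mock solution, and were harvested 3 h later. Each group had 3 libraries. Both groups carry the transgene, and plants without it that received Dex were not analysed here. Because whole internodes were sequenced, a change in the number of cells of a type and a change in RNA per cell cannot be told apart.

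Plant cells grow when their wall yields to turgor. Alpha-expansins loosen walls at acidic pH without cutting polymers, probably by weakening contacts between cellulose and xyloglucan, the main hemicellulose of these walls. Beta-expansins form a related branch, best studied for the pollen proteins of grasses, and no wall-loosening activity has been shown for the expansin-like proteins. XTHs cut xyloglucan chains and mostly rejoin the cut end to another xyloglucan chain, while a few members also hydrolyse them. Auxin acidifies the wall through plasma membrane proton pumps and is a classical inducer of expansin and XTH genes, and *Arabidopsis* TCH4, now also called XTH22, was found as a gene induced by touch. In stems, both elongating tissues and the expanding xylem cells next to the cambium use such enzymes.

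The 6 libraries held 22871927 to 32099136 reads in genes, and edgeR's quasi-likelihood test compared Dex with mock libraries over 19347 genes. On the first principal component of all tested genes (53.1% of the variance), mock replicate 2 lay at 4.05, against -33.9 to -21.8 for the Dex libraries and 37.9 and 39.2 for mock replicates 1 and 3, and it also stood alone on the following one (37.8, against -16.3 to 1.63 for the other 5 libraries). It is therefore shown apart below, and the results are given with and without it. Levels per library are CPM (counts scaled to a fixed library total) after TMM scaling, in the order of replicates 1, 2 and 3, and levels are compared between genes only as RPKM, the authors' exon reads divided by the exon length of the gene and the total of the library. Fold changes are Dex over mock, a gene is called changed at a Benjamini-Hochberg adjusted p under 0.05 over all tested genes, and every adjusted p below is from edgeR's quasi-likelihood test unless another tool is named. Markers of cambium (PXY, WOX4), xylem (CESA4, CESA7, CESA8), phloem (APL, SUC2) and epidermis (ATML1, FDH, CER6) were all detected, and PDF1 of the epidermis had no reads. Of the 10 detected, 0 were called by edgeR's quasi-likelihood test, DESeq2, limma-voom or edgeR's exact test (2 at an unadjusted p under 0.05, WOX4 and FDH). The quasi-likelihood test called 6.69% of all tested genes. The study reports WOX4 as repressed on induction of this transgene, by RNA sequencing, qRT-PCR and a reporter, so WOX4 is not a neutral marker here. The log2 fold changes of the 2 cambium markers, given from the lower to the higher value, were -0.36 and -0.11.

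ARF5 and related factors bind auxin response elements, so the 300 bases before the annotated start of each gene were searched for TGTCTC, the classical element, and TGTCGG, a higher-affinity form, on both strands. A match to one cannot be a match to the other at the same place, although both begin alike. TGTCTC lay in this window of 4 of the 39 genes, against 13% of 27443 protein-coding genes, and TGTCGG in 2 of the 39, against 4.91%. Other forms were not searched, among them CAGACA, the WOX4 promoter site that the study found bound by the ARF5 DNA-binding domain in vitro. The matches are printed because they show which genes of the set hold either string close to the start. Sequences run 5′ to 3′ on the strand of the gene, come from RefSeq's copy of TAIR10.1, and have the element, or its reverse complement, in capitals.
EXPB3, TGTCGG starting 88 bases before the gene, chr4:14002195-14002224, minus strand: cgacgccttaacTGTCGGtgggtcctaatt
EXLA3, reverse complement of TGTCGG starting 287 bases before the gene, chr3:16892403-16892432, plus strand: tagagaggaggaCCGACAggtaaaaggcaa
EXPA5, TGTCTC starting 149 bases before the gene, chr3:11013583-11013612, minus strand: ctctatattgtcTGTCTCaaacactcaaac
EXPA5, TGTCTC starting 94 bases before the gene, chr3:11013528-11013557, minus strand: tattgcaaatcaTGTCTCcataggagtata
EXPA10, TGTCTC starting 119 bases before the gene, chr1:9259301-9259330, plus strand: cacatgtgcattTGTCTCtttgctttttcg
EXPA6, reverse complement of TGTCTC starting 42 bases before the gene, chr2:12433821-12433850, minus strand: tatattttggtaGAGACAcattgagggaaa
XTH24, TGTCTC starting 292 bases before the gene, chr4:14820870-14820895, minus strand: aaaaagtcTGTCTCaattttaatatt
Of the 6 genes called below, EXPB3 held a match in this window, and EXPA20, XTH9, XTH16, XTH22 and XTH30 held neither string there. Either string lay in this window of 17.3% of the 27443 protein-coding genes, and of 6 of the 39 genes. A match is only a string of letters and was not tested for binding.

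The 39 genes spanned a wide range of levels. EXPA4 was the most abundant at a mean of 364 RPKM over the 6 libraries, followed by XTH4 (302 RPKM), EXPA15 (177 RPKM), XTH9 (175 RPKM), XTH32 (137 RPKM), XTH24 (128 RPKM) and EXPB3 (103 RPKM). These were the 7 genes above 100 RPKM. The 6 most abundant of them took 71.2% to 76.6% of the RPKM summed over the set in each library. At the other end, 9 genes had a mean under 1 RPKM, and EXPA2 (AT5G05290) had no read in any library. For the test, 32 of the 39 genes had enough reads in enough libraries, while EXPA2, EXPA11, EXPA16, XTH17, XTH19, XTH23 and XTH33 had not, EXPA11 and XTH19 because nearly all of their reads came from 1 or 2 mock libraries. The set therefore describes mainly EXPA4, EXPA15, EXPB3 and 4 XTHs in terms of transcript amount, while most of its genes were minor in this internode.

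**Figure D1:**
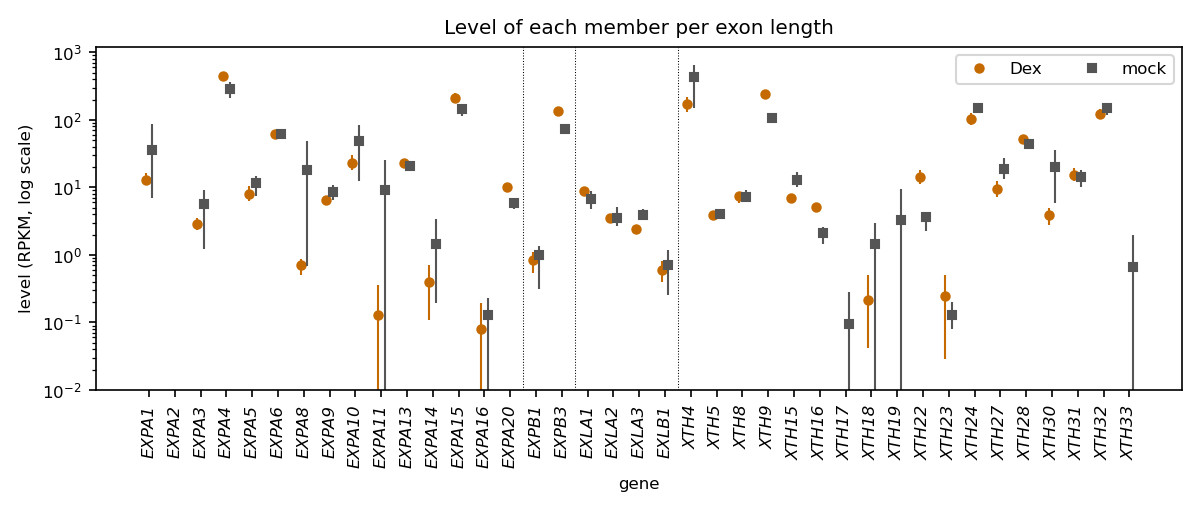
Mean RPKM of each gene in Dex (orange circles) and mock libraries (grey squares) on a log axis, with lines from the lowest to the highest of the 3 libraries; groups at 0 are not drawn and lines are cut at 0.01 RPKM. EXPA4 (364 RPKM over the 6 libraries) and XTH4 (302 RPKM) lead their families, and the mock lines are long for EXPA8, EXPA11 and XTH19, among others.

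Of the 32 genes tested, 5 were called higher in Dex and 1 was called lower. EXPA20, EXPB3, XTH9, XTH16 and XTH22 rose by 1.67-fold to 3.76-fold, and XTH30 fell to 0.195 of its mock level. The 5 higher genes are 15.6% of the tested set, against 4.63% of all tested genes, and the 1 lower gene is 3.12%, against 2.07% of all tested genes, so that 6.69% of all genes were called in either direction. At an unadjusted p under 0.05 the counts were 7 higher (12.4% of all genes) and 7 lower (10.2% of all genes). The log2 fold change was above 0 in 11 and below 0 in 21 of the 32 genes, with a median of -0.21 (-0.01 over all tested genes). Without mock replicate 2, 6 of these 32 genes were called higher (18.8%, against 9.79% of all genes tested in that fit, and 17.8% for either direction) and 11 lower (34.4%, against 7.96%), and their median was -0.49 (0.01 over all genes). EXPA11 was also called lower there, on a filter it did not pass with the 6 libraries. All 6 genes called with the 6 libraries were called in that fit too. The count of lower genes in the set thus depended on mock replicate 2. With each of the 6 libraries left out in turn, the median over the genes tested was -0.51 to -0.10, nearest to 0 without mock replicate 3.

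**Figure D2:**
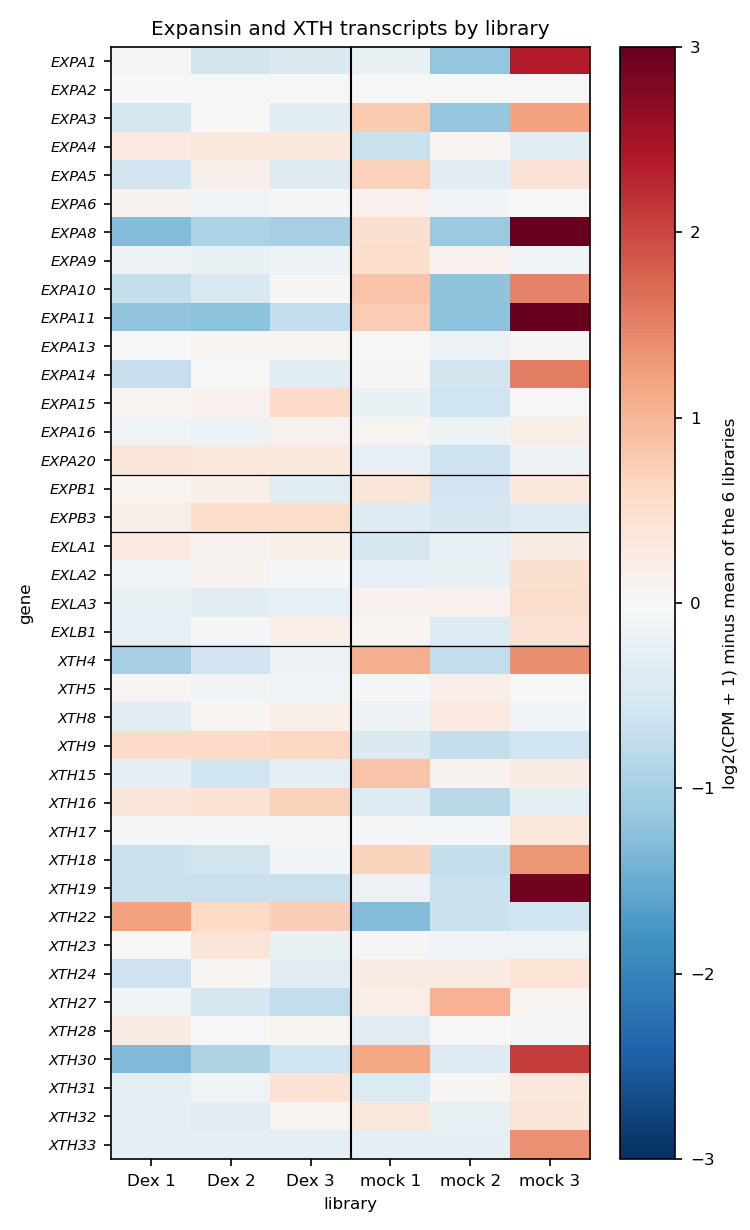
Level of each of the 39 genes in each library, as log2(CPM + 1) minus its mean over the 6 libraries, with Dex replicates 1 to 3 left of mock replicates 1 to 3 and the colour scale ending at 3 in both directions. Mock replicate 3 is the highest library for 13 of the 32 tested genes, and mock replicate 2 the lowest for 12 of them.

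Among the alpha-expansins, EXPA20 was the 1 of 12 tested genes that was called (8.33%, against 6.69% of all tested genes). The 2 most abundant ones, EXPA4 and EXPA15, had higher values in every Dex library without passing the test. EXPA4 (AT2G39700) had 576, 591 and 585 CPM in Dex libraries, against 294, 488 and 381 CPM in mock libraries. The Dex libraries lay close together and above all mock libraries, of which replicate 2 was the nearest. The log2 fold change was 0.59 ± 0.17 (SE, n = 3 each), with an adjusted p of 0.0818, and without mock replicate 2 it was 0.79 (adjusted p = 0.00485). DESeq2 and edgeR's exact test called it higher with the 6 libraries. EXPA15 (AT2G03090) had 248, 257 and 346 CPM in Dex libraries, against 204, 155 and 234 CPM in mock libraries. The groups did not overlap, but the gap between the lowest Dex and the highest mock library was small beside the spread, and the log2 fold change of 0.52 ± 0.18 was not called (adjusted p = 0.130, and 0.141 without mock replicate 2).

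EXPA20 (AT4G38210) had 11.8, 11.2 and 11.3 CPM in Dex libraries, against 7.27, 5.45 and 7.89 CPM in mock libraries. The mean was 11.4 ± 0.331 CPM in Dex and 6.87 ± 1.27 CPM in mock (SD, n = 3 each), a 1.67-fold difference (95% interval 1.32 to 2.11) with an adjusted p of 0.0407. This call was a narrow one. It was lost when any 1 of the 3 Dex libraries or mock replicate 1 was left out (adjusted p up to 0.145). EXPA20 was also the gene of the set with reads shared with other places in the genome, since 62.1% of its reads were unique, against at least 99.7% for the 37 other genes with reads. On unique reads alone its adjusted p was 0.0571. Its locus overlaps AT4G38215 on the other strand, which did not pass the count filter.

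Most other alpha-expansins had lower fitted values in Dex, and here the mock libraries disagreed among themselves. EXPA10 (AT1G26770), which promotes growth of leaves and petioles, had 24.7, 30.0 and 42.3 CPM in Dex libraries, against 75.2, 17.5 and 119 CPM in mock libraries. Mock replicate 2 thus lay below every Dex library, and mock replicates 1 and 3 lay above them. Its log2 fold change was -1.12 ± 0.54 (adjusted p = 0.257), -1.58 without mock replicate 2 (adjusted p = 0.00191) and -0.51 without mock replicate 3 (adjusted p = 0.635). EXPA5 (AT3G29030), regulated by brassinosteroids, had 7.91, 13.9 and 9.21 CPM in Dex libraries, against 20.5, 9.66 and 17.1 CPM in mock libraries. EXPA3 (AT2G37640) had 2.87, 4.55 and 3.37 CPM in Dex libraries, against 8.40, 1.44 and 11.6 CPM in mock libraries. Mock replicate 2 was below every Dex library for EXPA3 and inside the Dex range for EXPA5. The log2 fold change of EXPA5 was -0.61 (adjusted p = 0.261), -0.86 without mock replicate 2 (adjusted p = 0.0249) and -0.38 without mock replicate 1 (adjusted p = 0.590). That of EXPA3 was -0.98 (adjusted p = 0.360), -1.47 without mock replicate 2 (adjusted p = 0.00432) and -0.44 without mock replicate 3 (adjusted p = 0.752).

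EXPA1 (AT1G69530), a gene expressed in guard cells and growing organs, had 22.1, 15.3 and 16.5 CPM in Dex libraries, against 19.5, 9.66 and 122 CPM in mock libraries. Here 1 library, mock replicate 3, set the difference. The log2 fold change was -1.49 ± 0.76 (adjusted p = 0.289), -1.98 without mock replicate 2 (adjusted p = 0.0319) and 0.31 without mock replicate 3. EXPA8 (AT2G40610) had 0.541, 0.953 and 0.881 CPM in Dex libraries, against 4.24, 0.740 and 55.5 CPM in mock libraries, and 87.7% of its reads came from mock replicate 3. Its log2 fold change of -4.64 ± 1.34 was not called (adjusted p = 0.0765), although DESeq2 and edgeR's exact test called it. It was -5.21 without mock replicate 2 (adjusted p = 0.00362) and -1.63 without mock replicate 3 (adjusted p = 0.250). EXPA11 (AT1G20190) was not tested with the 6 libraries and had 1, 0 and 13 reads in Dex libraries, against 66, 0 and 669 reads in mock libraries. Of its reads, 89.3% came from mock replicate 3. It passed the filter without mock replicate 2 only through mock replicates 1 and 3, where it is high, so its difference in that fit is not counted.

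Of the other alpha-expansins, EXPA6 (AT2G28950), at a mean of 61.4 RPKM, had 93.4, 80.0 and 84.7 CPM in Dex libraries, against 96.1, 82.2 and 88.4 CPM in mock libraries. These ranges nearly coincide, and its log2 fold change was -0.05 ± 0.10 (adjusted p = 0.830). EXPA13 (AT3G03220), EXPA9 (AT5G02260) and EXPA14 (AT5G56320) had log2 fold changes of 0.10, -0.42 and -1.91 and were not called in this fit or without mock replicate 2. EXPA16 (AT3G55500) had 1, 0 and 7 reads in Dex libraries and 4, 0 and 6 reads in mock libraries. Summed over the 15 alpha-expansins, the level was 789, 775 and 836 RPKM in Dex libraries, against 554, 602 and 818 RPKM in mock libraries. The groups overlapped in this sum, since mock replicate 3 lay above Dex replicates 1 and 2. EXPA4 and EXPA15 made up most of it, while 8 of the 12 tested genes had a log2 fold change below 0.

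EXPB3 (AT4G28250) was called higher in Dex. It had 154, 196 and 199 CPM in Dex libraries, against 103, 95.4 and 103 CPM in mock libraries. The 3 mock libraries lay close together here, mock replicate 2 included, and below all Dex libraries. The mean was 183 ± 25.3 CPM in Dex and 100 ± 4.44 CPM in mock (SD, n = 3 each), a 1.82-fold difference (95% interval 1.54 to 2.15, adjusted p = 0.00513). EXPB3 and EXLA3 are the genes of the set with a TGTCGG string in the searched window, for EXPB3 88 bases before its start. The other beta-expansin of the set, EXPB1 (AT2G20750), had 1.08, 1.25 and 0.629 CPM in Dex libraries, against 1.58, 0.350 and 1.51 CPM in mock libraries. At this low level its log2 fold change of -0.21 ± 0.58 was not called (adjusted p = 0.868).

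None of the 4 expansin-like genes was called, with or without mock replicate 2, nor by DESeq2, limma-voom or edgeR's exact test, and 1, EXLA3, had an unadjusted p under 0.05. Of all tested genes, 6.69% were called with the 6 libraries. EXLA1 (AT3G45970) had 9.37, 8.10 and 8.52 CPM in Dex libraries, against 4.97, 6.15 and 8.96 CPM in mock libraries. EXLA2 (AT4G38400) had 3.58, 4.22 and 3.68 CPM in Dex libraries, against 3.07, 3.12 and 5.77 CPM in mock libraries. The groups overlapped in both genes, with log2 fold changes of 0.37 ± 0.23 (adjusted p = 0.374) and -0.06 ± 0.30 (adjusted p = 0.934). EXLA3 (AT3G45960), which lies next to EXLA1 on chromosome 3, was lower in all Dex libraries (2.66, 2.38 and 2.61 CPM) than in mock libraries (3.61, 3.66 and 5.13 CPM), with a log2 fold change of -0.69 ± 0.25 that did not pass (adjusted p = 0.143). EXLB1 (AT4G17030) had 0.416 to 0.944 CPM in Dex libraries and 0.273 to 1.29 CPM in mock libraries (adjusted p = 0.878). EXLA1 overlaps AT3G45980 on the other strand, for which a log2 fold change of -0.36 was measured (adjusted p = 0.0479), and whether the counting used strand is not given in the sources used here.

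**Figure D3:**
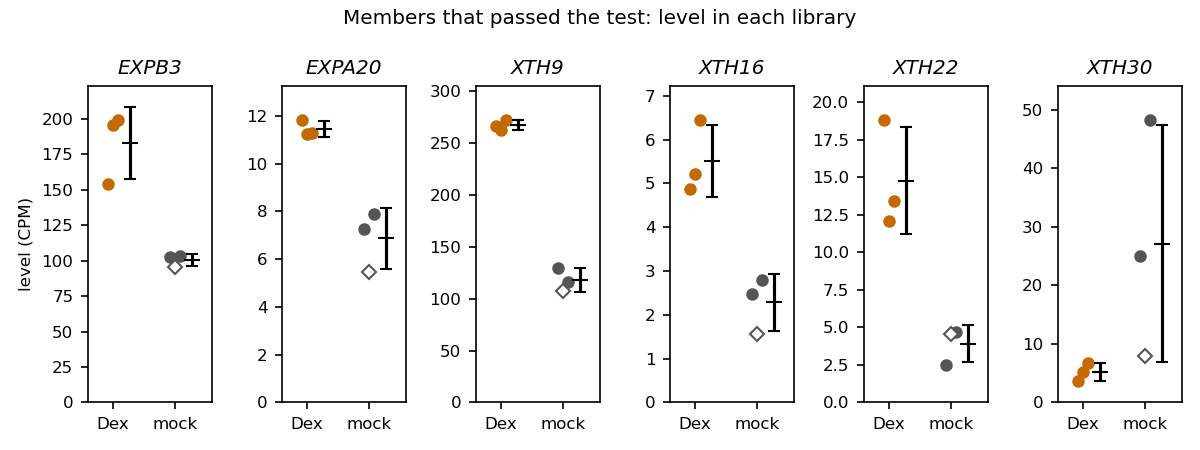
CPM of the 6 called genes in each library, Dex left of mock, with mock replicate 2 as an open diamond and bars for the mean ± SD of 3 libraries. All Dex libraries lie above all mock libraries for EXPA20, EXPB3, XTH9, XTH16 and XTH22, and below them for XTH30, whose mock libraries range from 7.94 to 48.3 CPM.

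The XTHs held 4 of the 6 calls among 14 tested genes, 3 higher and 1 lower (28.6% called, against 6.69% of all tested genes). XTH9 (AT4G03210), which with XTH4 has a known role in secondary growth of the *Arabidopsis* stem, had 266, 263 and 272 CPM in Dex libraries, against 130, 107 and 116 CPM in mock libraries. All 6 libraries fell tightly into their groups. The mean was 267 ± 4.77 CPM in Dex and 118 ± 11.4 CPM in mock (SD, n = 3 each), a 2.27-fold difference (95% interval 1.96 to 2.62) and the smallest adjusted p of the set (0.000539). XTH22 (AT5G57560), the touch gene TCH4, had 18.8, 12.1 and 13.4 CPM in Dex libraries, against 2.48, 4.56 and 4.70 CPM in mock libraries. It had the highest fold change of the 32 tested genes of the set at 3.76-fold (95% interval 2.60 to 5.44, adjusted p = 0.00541), and the lowest Dex library was well above the highest mock library. XTH16 (AT3G23730) had 4.87, 5.21 and 6.45 CPM in Dex libraries, against 2.48, 1.56 and 2.80 CPM in mock libraries. Its 2.42-fold difference (95% interval 1.65 to 3.54) passed at an adjusted p of 0.0318, and was not called when any Dex library or mock replicate 1 was left out (adjusted p of 0.0842 to 0.136).

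Other genes of touch and wounding were read beside XTH22. None of TCH2, TCH3, WRKY40, WRKY33 and ZAT12 was called by edgeR's quasi-likelihood test or by DESeq2, limma-voom or edgeR's exact test, 0 had an unadjusted p under 0.05, and all 5 had their lowest mock value in replicate 2. Over all tested genes, 6.69% were called by the quasi-likelihood test, and 34.0% had mock replicate 2 below both other mock libraries. TCH3, a calmodulin-like protein gene, had 59.5, 19.9 and 27.7 CPM in Dex libraries, against 84.8, 30.7 and 58.5 CPM in mock libraries. Summed over the 5 genes the level was 43.0 to 75.3 RPKM in Dex and 47.7 to 90.2 RPKM in mock libraries. These ranges overlap, and the part of touch or dipping in the XTH22 difference was not tested.

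XTH30 (AT1G32170) was the 1 gene of the set called lower with the 6 libraries. It had 3.71, 5.24 and 6.79 CPM in Dex libraries, against 25.1, 7.94 and 48.3 CPM in mock libraries. The groups did not overlap, but mock replicate 2 lay close to the Dex values and the mock SD was 20.3 CPM around a mean of 27.1 CPM. The log2 fold change was -2.36 ± 0.55 (SE, n = 3 each, adjusted p = 0.0390) and -2.79 without mock replicate 2 (adjusted p = 0.000354). With any other library left out, it was not called (adjusted p of 0.0863 to 0.157, with a log2 fold change of -1.64 without mock replicate 3), nor was it with limma-voom (adjusted p = 0.153).

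XTH4 (AT2G06850) was the most abundant XTH and differed widely among the mock libraries. It had 151, 202 and 265 CPM in Dex libraries, against 644, 179 and 788 CPM in mock libraries. Mock replicate 2 lay inside the Dex range, at 0.250 of the mean of the other 2 mock libraries. The log2 fold change was -1.38 ± 0.46 (adjusted p = 0.113), -1.80 without mock replicate 2 (adjusted p = 0.00066) and -0.998 without mock replicate 3 (adjusted p = 0.287), and edgeR's exact test called it lower with the 6 libraries. XTH32 (AT2G36870), of the subgroup that holds enzymes with hydrolase activity, had 149, 142 and 189 CPM in Dex libraries, against 226, 153 and 230 CPM in mock libraries. Here too mock replicate 2 fell among the Dex libraries, and the log2 fold change was -0.34 ± 0.18 (adjusted p = 0.292), and -0.51 without mock replicate 2 (adjusted p = 0.0294).

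XTH24, XTH15 and XTH27 had lower values in every Dex library, mock replicate 2 included, and did not pass the test. XTH24 (AT4G30270), known as MERI5 from shoot meristems, had 98.1, 155 and 120 CPM in Dex libraries, against 177, 179 and 199 CPM in mock libraries. XTH15 (AT4G14130) had 7.99, 6.23 and 7.96 CPM in Dex libraries, against 18.7, 10.8 and 11.9 CPM in mock libraries. XTH27 (AT2G01850) had 16.9, 12.4 and 10.4 CPM in Dex libraries, against 21.1, 38.5 and 19.3 CPM in mock libraries. Mock replicate 2 was on the side of the other mock libraries in these 3 genes and the highest of all for XTH27. The log2 fold changes were -0.57 ± 0.16 for XTH24 (adjusted p = 0.0714), -0.90 ± 0.23 for XTH15 (adjusted p = 0.0509) and -0.995 ± 0.280 for XTH27 (adjusted p = 0.0720). Without mock replicate 2, XTH24 (adjusted p = 0.0393) and XTH15 (adjusted p = 0.00981) were called lower, and XTH27 was not (adjusted p = 0.0539). XTH15 also passed on unique gene reads (adjusted p = 0.0469). Without the low-count filter, XTH15 (adjusted p = 0.0363) and XTH27 (adjusted p = 0.0468) passed. XTH24 passed without Dex replicate 2 (adjusted p = 0.0442), and DESeq2 and edgeR's exact test called all 3 lower with the 6 libraries. XTH15 overlaps AT4G14120 on the other strand, which had a log2 fold change of -0.11 (adjusted p = 0.913).

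XTH18, XTH19 and XTH24 lie next to each other on chromosome 4 but differed in level and in pattern. XTH18 (AT4G30280), mainly a root gene, had 1, 3 and 17 reads in Dex libraries, against 35, 0 and 72 reads in mock libraries, a log2 fold change of -2.67 ± 1.25 (adjusted p = 0.247). It was -3.25 without mock replicate 2 (adjusted p = 0.0174), -1.68 without mock replicate 3 (adjusted p = 0.570) and -4.25 without Dex replicate 3 (adjusted p = 0.247). XTH19 (AT4G30290) had no read in Dex libraries and 9, 0 and 254 reads in mock libraries, so 96.6% of its reads came from mock replicate 3. XTH33 (AT1G10550) had 50 reads in mock replicate 3 and none elsewhere, XTH17 (AT1G65310) had 7 reads there and none elsewhere, and XTH23 (AT4G25810) had 5, 15 and 1 reads in Dex libraries and 5, 3 and 2 reads in mock libraries. These 4 did not pass the count filter with the 6 libraries, and the absence of reads in the Dex group for XTH17, XTH19 and XTH33 is compatible with a level of at most 0.0364 CPM, set by 3 counts in its 3 libraries together and covering counting error only. The remaining XTHs, XTH5 (AT5G13870), XTH8 (AT1G11545), XTH28 (AT1G14720) and XTH31 (AT3G44990), had log2 fold changes of -0.09 to 0.23 and were not called with or without mock replicate 2.

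**Figure D4:**
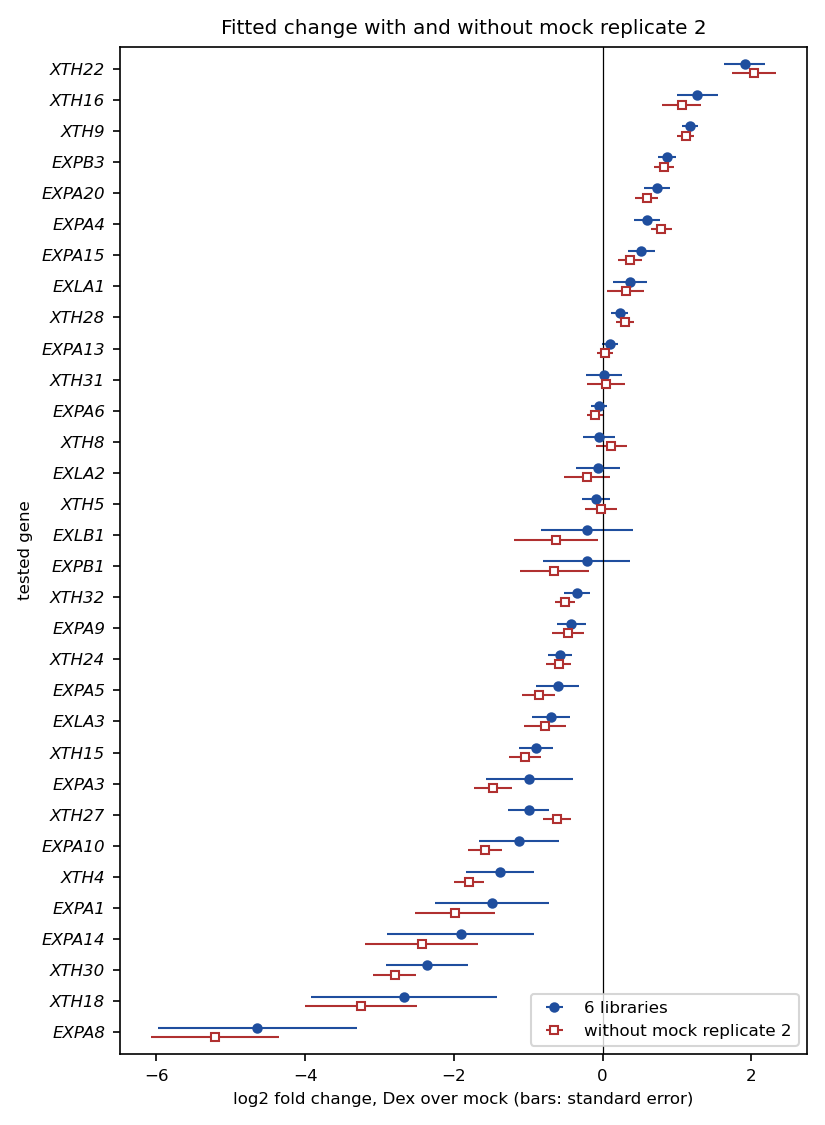
Log2 fold change (Dex over mock) ± SE of the 32 tested genes, with the 6 libraries (filled blue circles) and without mock replicate 2 (open red squares). The values of XTH9, EXPB3 and XTH22 hardly move, while those of XTH4, EXPA10 and EXPA3 shift to lower values without that library.

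Mock replicate 2 was below both other mock libraries in 20 of the 32 tested genes (62.5%), against 34.0% of all genes tested, above both in 5 and between them in 7. Its median level was 0.714 of the mean of mock replicates 1 and 3. Of the 11 genes called lower without it (EXPA11 aside), 10 had it below both other mock libraries, and in 8 of them it also lay below the mean of the Dex libraries. For each of the 5 genes called higher, it lay below all Dex libraries. These positions follow in part from the calls that picked the genes, so they are not separate results. With the 6 libraries, all Dex values lay above all mock values in 7 genes (21.9%, against 15.2% of all genes tested) and below them in 6 (18.8%, against 12.1%), and the groups overlapped in 19. The spread was wider among mock libraries in 25 of the 32 genes (78.1%, against 64.0% of all genes tested), with a median coefficient of variation of 0.196 in Dex and 0.295 in mock.

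Genes of green cortex moved with this library as well. The summed level of LHCB1.1 and RBCS1A, both genes of photosynthesis, was 3188 to 4377 RPKM in Dex libraries, against 6742, 3644 and 6669 RPKM in mock libraries. Both were below the other mock libraries in mock replicate 2, and both were called lower in Dex without it (adjusted p of 0.01 for LHCB1.1 and 0.0165 for RBCS1A) and not with it (0.227 and 0.248). Of all genes tested in the fit without mock replicate 2, 7.96% were called lower. The part of green tissue in the lower values of the expansin and XTH genes was not tested.

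Genes that make and trim xyloglucan, the polymer on which XTHs act, were read beside the set. The 13 genes of xyloglucan synthesis included the glucan synthases CSLC4 to CSLC12, the xylosyltransferases XXT1 to XXT5 and the side-chain enzymes FUT1, MUR3 and XLT2. Of these, 0 were called by edgeR's quasi-likelihood test or the 3 other tools, against 6.69% of all tested genes by the former. At an unadjusted p under 0.05 there were 0, against 12.4% higher and 10.2% lower of all tested genes. All 13 had overlapping groups, as had 14056 of 19347 tested genes, and the median log2 fold change of the 13 was 0.02. The 2 most abundant, XXT2 (69.2 RPKM) and XXT5 (45.2 RPKM), had log2 fold changes of -0.13 (adjusted p = 0.594) and 0.02 (adjusted p = 0.954). The trimming enzymes XYL1, BGAL10 and AXY8 were not called either (adjusted p of 0.187, 0.162 and 0.135, all 3 with an unadjusted p under 0.05). All 3 were called lower without mock replicate 2 (adjusted p of 0.0146, 0.00644 and 0.0352), as were 7.96% of all genes tested in that fit. The proton pumps AHA1 and AHA2 had log2 fold changes of -0.29 (adjusted p = 0.148) and 0.10 (adjusted p = 0.584), and DESeq2 called AHA1.

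Most of the rest of both families had few or no reads in this tissue, with XTH7 (25.8 RPKM) the most abundant. Of 15 further expansin genes, 12 had no read in any library, among them the root hair gene EXPA7, and EXPA21 was the 1 that passed the count filter (adjusted p = 0.814). Of 15 further XTH genes, 7 had no read and 4 were tested, XTH6, XTH7, XTH10 and XTH29. Of these 4, 0 were called (6.69% of all tested genes were), 2 had an unadjusted p under 0.05 (XTH6 and XTH7) and XTH6 was called by edgeR's exact test. XTH6 had 1.79, 4.73 and 5.66 CPM in Dex libraries, against 19.4, 5.41 and 16.2 CPM in mock libraries, with a log2 fold change of -1.74 (adjusted p = 0.0780, and 0.0037 without mock replicate 2). It shared with XTH4 and XTH30 high values in mock replicates 1 and 3 and a value near the Dex libraries in mock replicate 2.

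Summed over the set, the groups overlapped. The RPKM summed over all 39 genes was 1629, 1686 and 1818 in Dex libraries, against 1688, 1324 and 2150 in mock libraries, so that the Dex libraries lay inside the mock range. The 18 XTHs summed to 708, 751 and 822 RPKM in Dex libraries, against 1049, 639 and 1236 RPKM in mock libraries, and the 2 beta-expansins to 116, 145 and 145 RPKM in Dex libraries, against 73.4, 69.7 and 76.0 RPKM in mock libraries. XTH9 had 245 RPKM in Dex, against 106 RPKM in mock, while XTH4 had 170 RPKM in Dex, against 433 RPKM in mock, so that the more abundant of these 2 XTHs was XTH9 in the Dex mean and XTH4 in the mock mean. In mock replicate 2 alone the levels of XTH4 and XTH9 were closer, at 148 and 98.1 RPKM.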

How the data were processed

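The sequenced samples were second internodes of 3 Dex and 3 mock replicates, by the methods with 3 plants in each; the design text speaks of pooled RNA, so what 1 library pools is uncertain. The authors aligned reads to TAIR10 with CLC Genomics Workbench 7.0.3 and deposited, per gene, read counts (total gene, unique gene and exon reads) and RPKM (exon reads divided by exon length and by library total). The annotation release and strand use in counting are not given in the sources used here. Of 33323 rows, 5 without a gene name (0.0803% to 0.0998% of reads) were left out. Groups came from the sample labels.

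Total gene read counts were tested with edgeR 4.0.16 (TMM factors 0.969 to 1.04, low-count filter with minimum 10 and total 15, quasi-likelihood test, Benjamini-Hochberg over 19347 genes, threshold 0.05). The procedure was tested on simulated data. Intervals are 95% intervals from a normal approximation, with the SE taken from the log2 fold change and the F statistic of the test. They do not allow for the few libraries as the quasi-likelihood test does, so they are too narrow beside its p-values. The p-values set the difference between Dex and mock against the variation between these libraries, which are not single plants. The members, lists and rule for named genes (called members, those called without mock replicate 2, and the 2 most abundant of each role) were chosen with earlier results of these data known. The study lists genes it found changed both in these libraries and in those of *p35S:Myc-GR-bdl* plants. That list holds 6 members (EXPA4, EXPA15, EXPB3, EXLA3, XTH9 and XTH24), so they are not independent evidence. The study used DESeq and a p-value under 0.05, which differs from the test and the adjusted threshold used here. EXPA4, EXPA15, EXLA3 and XTH24 were not called here with the 6 libraries. Their unadjusted p in edgeR's quasi-likelihood test was 0.00823, 0.0193, 0.0228 and 0.00625, all under 0.05. Values of further members are given to account for all of them. Names, neighbours and upstream sequences came from RefSeq TAIR10.1, whose coordinates are given only for printed sequences; no gene model release of the deposited tables is assumed. Alternatives were leaving out each library, a replicate block, other count columns, normalizations, filters and thresholds, DESeq2 1.42.0, limma-voom (limma 3.58.1), edgeR's exact test, and limma on log2(RPKM + 1) and log2(RPKM + 0.1). Libraries of *p35S:Myc-GR-bdl* plants were not used here.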

Additional observations from a re-analysis of the deposited data

How the results depend on the processing

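Over 17 alternatives, EXPB3, XTH9 and XTH22 were called in every one. Of 357 values for the 21 named and tested genes, 305 stayed on the same side of the threshold in the same direction, 25 passed it newly, 18 no longer passed and 9 changed sign. The counts in the set were 5 higher and 1 lower. Leaving out 1 library gave 3 to 6 higher and 0 to 12 lower (EXPA11 included), the highest of both without mock replicate 2; over all genes (895 higher, 400 lower) it gave 337 to 1918 higher and 70 to 1559 lower. In the set the lower count was 5 with DESeq2, 6 with edgeR's exact test, 4 without a filter on low counts, 2 on unique gene reads, 7 at unadjusted p under 0.05, and 0 with limma-voom, with limma on log2(RPKM + 1) or log2(RPKM + 0.1) and at an adjusted p under 0.01, where the higher count was 3. Over all genes, DESeq2 called 1399 higher and 948 lower, the exact test 845 lower, limma on log2(RPKM + 1) 250 and on log2(RPKM + 0.1) 248 lower, unadjusted p under 0.05 gave 2408 higher and 1969 lower, and an adjusted p under 0.01 gave 305 higher and 62 lower. Signs changed for EXPA1, whose log2 fold change ran from -1.98 to 0.31 with 1 library left out, for EXPB1 (-0.65 to 0.074; 0.011 with limma-voom) and for EXLA2 (-0.23 to 0.31; 0.0071 with limma-voom, 0.0165 with limma on log2(RPKM + 1) and 0.0318 on log2(RPKM + 0.1)). The cause was not tested.

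Deviations of same-numbered Dex and mock libraries from their group means correlated at -0.14, -0.02 and 0.28. The labels do not say whether equal numbers mark paired samples, and so few correlations cannot decide it. With the replicate number as a block, 4 genes of the set were higher and 2 lower, and 261 of all genes were lower; EXPA20 was no longer called (adjusted p = 0.0645) and XTH15 was (adjusted p = 0.0453); Dex replicate 3 correlated best with its own number, and Dex replicates 1 and 2 did not. Depth limits the genes under about 1 CPM, where a few reads in 1 library set the value.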
